A study of Mus musculus with 7 samples.

Results

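Metallothioneins and the genes of zinc transport were followed across 7 RNA-seq libraries from the amygdala of stressed mice. The group holds 6 genes, taken by symbol from the 35976 gene symbols of the count table, and all 6 were found: the metallothioneins Mt1, Mt2 and Mt3, the metal-responsive transcription factor Mtf1, and the zinc exporters Slc30a1 and Slc30a3. All 6 passed the filter on low counts. The study asks what the nuclear receptor Nr2f2 does in amygdala neurons under chronic stress. Of the libraries, 4 carried a guide RNA against the Rosa locus as the control (sgRosa) and 3 a guide against Nr2f2 (sgNr2f2). Every mouse was a male C57BL/6J that received an adeno-associated virus in the amygdala, with Cas9 under the Hsyn promoter, and then went through tube restraint for 7 days, fear conditioning for 1 day and extinction for 3 days. The labels used here state neither the age of the mice nor whether a library came from 1 mouse or several, so each p-value reflects only how these libraries vary. The Hsyn promoter confines Cas9 to neurons, whereas the libraries also held RNA of other cells, as the marker values below show.

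Metallothioneins are small proteins rich in cysteine that bind zinc and copper. Mt1 and Mt2 are made in most tissues and are induced by metals, glucocorticoids and oxidative stress, and in brain they are strongest in astrocytes. Mt3 is the form found mainly in the nervous system. Mtf1 senses free zinc through its zinc fingers and switches on Mt1, Mt2 and Slc30a1 through short DNA sites called metal response elements. Slc30a1 (ZnT1) exports zinc across the plasma membrane. Slc30a3 (ZnT3) loads zinc into synaptic vesicles of a subset of glutamate neurons, a kind of terminal that is plentiful in the amygdala.

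The coding sequences of the 3 metallothioneins are shown because the genes are close relatives whose reads could be confused. They are printed 5′ to 3′ with the in-frame cysteine codons in capitals, from GENCODE M21 transcripts that are paired with a curated RefSeq transcript (GRCm38, plus strand, introns removed).
Mt1 (chr8:94179311-94180193): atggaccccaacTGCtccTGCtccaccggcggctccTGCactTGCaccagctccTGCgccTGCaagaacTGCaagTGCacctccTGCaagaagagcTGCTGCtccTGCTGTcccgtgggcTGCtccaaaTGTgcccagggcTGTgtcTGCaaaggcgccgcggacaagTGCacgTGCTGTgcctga
Mt2 (chr8:94172848-94173427): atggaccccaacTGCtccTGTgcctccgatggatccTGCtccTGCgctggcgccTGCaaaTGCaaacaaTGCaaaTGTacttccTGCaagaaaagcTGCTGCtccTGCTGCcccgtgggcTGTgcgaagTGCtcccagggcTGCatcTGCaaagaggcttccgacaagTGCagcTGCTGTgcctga
Mt3 (chr8:94152800-94154010): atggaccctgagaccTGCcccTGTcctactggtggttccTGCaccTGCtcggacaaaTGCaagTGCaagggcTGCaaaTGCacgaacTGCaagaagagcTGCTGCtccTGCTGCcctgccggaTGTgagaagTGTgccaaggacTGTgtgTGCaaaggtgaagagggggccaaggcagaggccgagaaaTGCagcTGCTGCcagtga
Each of the 3 sequences had 20 cysteine codons. These were 32.8% of the 61 codons of Mt1 and of Mt2 and 29.4% of the 68 codons of Mt3, whose sequence held 21 bases more than either of the others. Mt1 and Mt2 were identical at 79.6% of 186 aligned bases, Mt1 and Mt3 at 73.7%, and Mt2 and Mt3 at 75.3%. The longest run shared without a mismatch between 2 of the full transcripts was 27 bases, between Mt1 and Mt3. Neither the read length nor how the authors counted a read with several matches is known here.

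The 3 genes lie in a row on chromosome 8 (mm10), with Mt3 at 94152607 to 94154148, Mt2 at 94172618 to 94173567 and Mt1 at 94178883 to 94180327. Mt1 and Mt2 are 5.32 kb apart, and each of the 3 has 3 exons. Mt4, the fourth gene of the cluster and known from squamous epithelium, had 0 counts in all 7 libraries, where 3 counts would correspond to between 0.143 and 0.479 CPM (counts scaled to the size of the library). That floor covers counting error only. Of the genes that flank the cluster, Bbs2 lay at 6.77 and 6.84 CPM in sgRosa and sgNr2f2 and Nup93 at 11.5 and 13.2 CPM (both named after their values were seen). Mtf1 is on chromosome 4 (124802549 to 124849800, 11 exons), Slc30a1 on chromosome 1 (191906697 to 191913248, 2 exons) and Slc30a3 on the minus strand of chromosome 5 (31086106 to 31108244, 8 exons). Mtf1 overlaps 1110065P20Rik at its end and Slc30a1 overlaps the lncRNA 1700034H15Rik at its start. Reads of such neighbours may be shared, since the use of strand in the counting is not stated.

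Metal response elements were looked for as the core letters TGCACNC and TGCGCNC, on both strands and with overlaps allowed, in the RefSeq promoter windows of GRCm38.p6, which run from 250 bases before a transcript start to 50 after it. At least 1 core was present in 25.7% of all 32851 windows, at least 2 in 7.11%, at least 3 in 1.97% and at least 4 in 0.517%. The window of Mt2 held 4 cores, that of Mt1 3, that of Slc30a1 2 and that of Mt3 1. Mtf1 had none, and of the 2 windows of Slc30a3 one had 1 and the other none. The Mt2 stretch before the start and short stretches of Mt1 and Slc30a1 are shown because these are the genes that Mtf1 is known to act on. Capitals mark the cores on either strand, and all are given on the plus strand.
Mt2 (chr8:94172368-94172617): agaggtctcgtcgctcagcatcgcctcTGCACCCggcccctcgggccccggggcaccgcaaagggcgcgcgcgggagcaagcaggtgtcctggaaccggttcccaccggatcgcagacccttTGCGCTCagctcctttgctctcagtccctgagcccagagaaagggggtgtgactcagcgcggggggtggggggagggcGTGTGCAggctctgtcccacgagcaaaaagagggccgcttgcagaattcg
Mt1 (chr8:94179089-94179118): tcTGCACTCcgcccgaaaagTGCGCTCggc
Slc30a1 (chr1:191906726-191906755): aacgggggttccGAGTGCAaagcaaagttt
The Mt1 stretch begins at 94179089, the transcript start that set its window, whereas the RefSeq span of the gene begins at 94178883. Another core of Mt1 lies at 23 bases before the start of the stretch. GENCODE also lists Mt1 transcripts that start at 94179211 and 94179241, downstream of this window. The bases from the end of the window at 94179138 to these starts were not searched. A match of letters is a description of the window and not a site shown to be bound.

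Total counts ran from 6266897 to 20928677 per library. The targeted gene Nr2f2 had 422, 305, 166 and 96 counts in sgRosa and 196, 214 and 191 in sgNr2f2, and its log2 fold change of -0.36 (SE 0.37) did not pass (edgeR adjusted p = 0.905). Neurons are defined here by 6 markers led by Syt1, Snap25 and Nefl, which were present in all 7 libraries and summed to between 344 and 1244 CPM. Other cells were present as well: Mbp of oligodendrocytes took 1.47 to 25.8% of counts, and endothelial markers led by Slco1a4 summed to between 1819 and 4577 CPM. sgRosa replicate 4 stood apart. It had the lowest total, the lowest Mbp share, 3.70% of counts in erythroid genes against at most 0.316% elsewhere, and a mean correlation with the other libraries of 0.72 against 0.88 to 0.90. Log2 fold changes, their medians and differences in log2 ratio that turn direction or move by more than 1.5 times without it are given both ways.

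Per length of transcript, Mt1 was the most abundant of the 6 genes, with a median of 221.8 CPM per kb over the 7 libraries (range 111.1 to 498.4). Mt2 (median 47.9, range 25.0 to 135.7) and Mt3 (median 29.9, range 18.2 to 64.7) followed. Mt1 was above Mt2 in 7 of 7 libraries, while Mt2 was above Mt3 in only 4 of 7, so their order did not hold beyond the spread between libraries. The remaining genes were far lower: the median was 8.73 CPM per kb for Slc30a1, 4.62 for Mtf1 and 0.726 for Slc30a3. Slc30a1 exceeded Mtf1 in 5 of 7 libraries, and Mtf1 exceeded Slc30a3 in 5 of 7. Slc30a3 also varied most, by 14.1-fold between its highest and its lowest library, against 3.00-fold to 5.43-fold for the others. Of the summed CPM of the 3 metallothioneins, Mt1 made up 67.3 to 73.3% in every library, Mt2 11.5 to 23.2% and Mt3 5.48 to 19.2%.

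**Figure D1:**
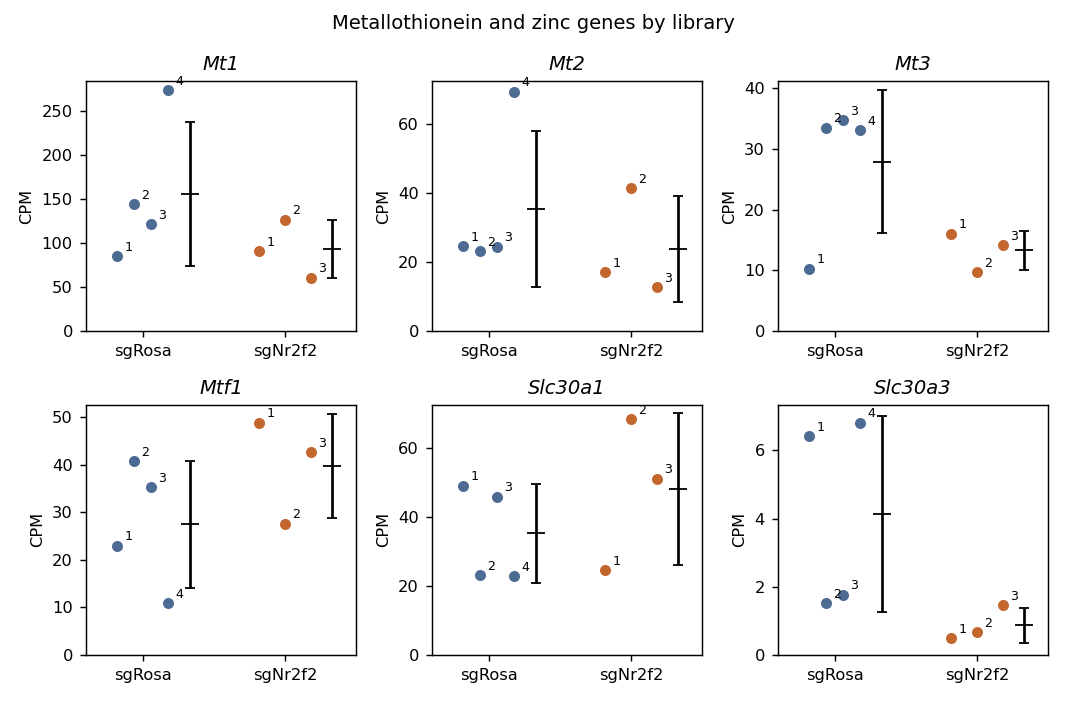
Level of each of the 6 genes in CPM (linear axis from 0) in the 4 sgRosa (blue) and 3 sgNr2f2 (orange) libraries, with replicate numbers beside the points and the mean with SD in black. Only for Slc30a3 do the groups not overlap, by a small margin (1.45 against 1.52 CPM), and sgRosa replicate 4 is the highest point for Mt1 and Mt2 and the lowest for Mtf1.

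The libraries with the Nr2f2 guide were compared with the controls to ask which metal-handling genes differ between them. None of the 6 genes passed the test over all genes. edgeR's quasi-likelihood test with Benjamini-Hochberg adjustment at 0.05 called 0 of 14412 genes (0.00% in each direction). Before adjustment, p was under 0.05 for 314 genes with a positive log2 fold change (2.18%) and 407 with a negative one (2.82%), and without sgRosa replicate 4 edgeR called 0 of 14096, where these shares were 6.41% and 4.88%. limma-voom called 0 with and without that library. DESeq2 called 1 gene higher (0.00418%) and 6 lower (0.0251%), and without sgRosa replicate 4 it called 233 higher (1.49%) and 124 lower (0.792%). No member of the group was among the genes DESeq2 called. Of the 6 genes, 1 was lower at an unadjusted p under 0.05 and 1 lay lower with groups that did not overlap, in both cases Slc30a3. Groups that do not overlap were found on the lower side for 3.90% of all genes tested and on the higher side for 4.41%. The median log2 fold change of all genes tested was -0.11, or -0.03 without sgRosa replicate 4. It was -0.33 when library sizes alone set the scale, so that values are to be read against this middle.

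Mt3, the metallothionein of the nervous system, had the most negative log2 fold change of the 3. It had 219, 619, 510 and 243 counts in sgRosa replicates 1 to 4, or 10.3, 33.5, 34.7 and 33.1 CPM, and 265, 174 and 234 counts in sgNr2f2, or 16.1, 9.75 and 14.2 CPM. The sgNr2f2 libraries thus lay below 3 of the sgRosa libraries, and the groups overlapped through sgRosa replicate 1, whose value was as low as theirs. The means were 27.9 ± 11.8 CPM (SD, n = 4) and 13.3 ± 3.23 CPM (n = 3), a log2 fold change of -1.06 (SE 0.49, 95% interval -2.15 to 0.02) that did not pass (edgeR adjusted p = 0.868). It was -0.97 without sgRosa replicate 4 and -1.35 without sgRosa replicate 1.

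Mt1 and Mt2, the metal- and steroid-inducible pair, were set apart mainly by sgRosa replicate 4. Mt1 lay at 85.1, 144.6, 121.8 and 273.6 CPM in sgRosa and at 90.9, 126.9 and 61.0 CPM in sgNr2f2. Apart from sgRosa replicate 4 the libraries of both groups overlapped broadly. The means were 156.3 ± 82.0 CPM and 92.9 ± 33.0 CPM, with a log2 fold change of -0.75 (SE 0.52, interval -1.91 to 0.41, edgeR adjusted p = 0.869), and -0.33 without that library. Mt2 lay at 24.7, 23.1, 24.5 and 69.4 CPM in sgRosa and at 17.1, 41.3 and 12.8 CPM in sgNr2f2. In sgRosa 3 values of Mt2 were nearly equal and the other stood far above them, while in sgNr2f2 replicate 2 was the high one. Its log2 fold change was -0.57 (SE 0.57, interval -1.84 to 0.69, edgeR adjusted p = 0.904), and it was -0.02 without sgRosa replicate 4, where the means were 24.1 and 23.7 CPM, and -1.24 without sgNr2f2 replicate 2. Mt1 exceeded Mt2 by 3.07-fold to 6.26-fold in CPM within a library, and the groups overlapped in this ratio (mean log2 ratio 2.18 ± 0.38 and 2.09 ± 0.42).

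**Figure D2:**
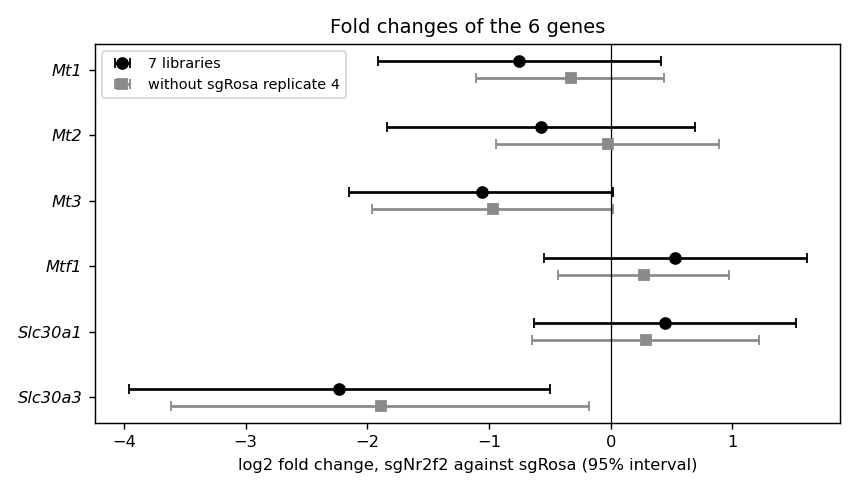
Log2 fold change of each gene, sgNr2f2 against sgRosa, with its 95% interval from edgeR, for all 7 libraries (black circles) and without sgRosa replicate 4 (grey squares). Intervals of Mt1, Mt2, Mt3, Mtf1 and Slc30a1 include 0 in both fits, that of Slc30a3 does not, and none of the 6 passed after adjustment over all genes.

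Short transcripts as a class were high in the same libraries as Mt3. The metallothionein transcripts are 511 to 549 bases long, and 252 other genes tested had transcripts of up to 700 bases. These 252 had a median log2 fold change of -0.61, and 88.9% of them lay on the lower side (80.9% and a median of -0.39 without sgRosa replicate 4). In contrast, the 2812 genes with transcripts above 5000 bases had a median of 0.01 (-0.01 without sgRosa replicate 4). The median deviation of the short class from its middle over the libraries was 0.33, 0.29 and 0.46 (log2) in sgRosa replicates 2, 3 and 4, against -0.08 in sgRosa replicate 1 and -0.13, -0.25 and -0.03 in sgNr2f2. The 3 libraries high for Mt3 were therefore those high for short transcripts, and sgRosa replicate 1 was low for both. With offsets that took out each library's trend with transcript length, a correction chosen after the data were seen, the log2 fold change of Mt3 was -0.48 (SE 0.40, edgeR adjusted p = 0.918), that of Mt1 -0.13 and that of Mt2 0.07. Without sgRosa replicate 4 the same correction gave -0.49, 0.11 and 0.41, so that the direction of Mt1 and Mt2 turned. The part of transcript length in the uncorrected values was not tested beyond this.

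**Figure D3:**
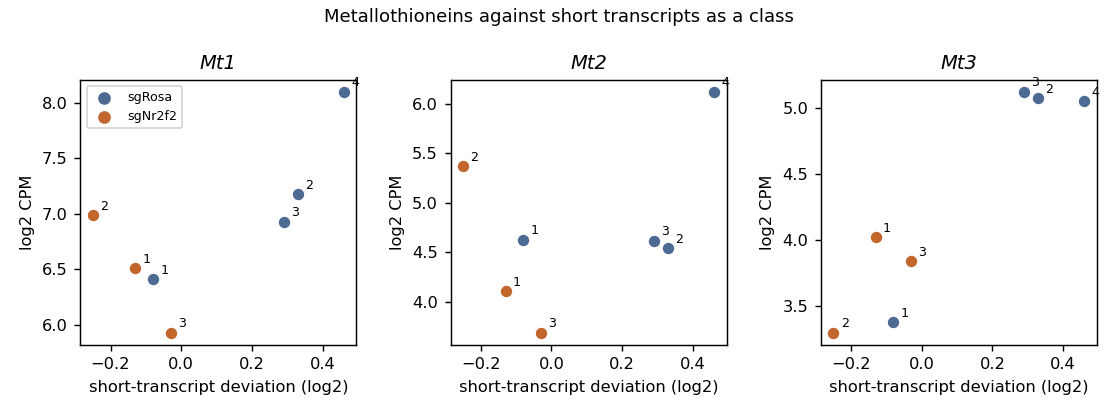
Log2 CPM of Mt1, Mt2 and Mt3 (vertical axes) against the median log2 deviation of all tested genes with transcripts of up to 700 bases (horizontal axis), 1 point per library, sgRosa in blue and sgNr2f2 in orange. For Mt3 the sgRosa libraries 2, 3 and 4 sit together at the upper right and the other 4 libraries at the lower left.

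Astrocyte markers were read beside the metallothioneins, since astrocytes are a known source of these transcripts and their RNA was present in the libraries. All 9 astrocyte markers were detected in every library, led by Aldoc, Gfap and Slc1a2, and none was at 0. They summed to between 265.8 and 667.5 CPM in sgRosa and between 320.4 and 614.6 CPM in sgNr2f2, with 3 of the 9 on the higher side, 6 on the lower and 0 called by edgeR. Their median log2 fold change was -0.71 (-0.83 without sgRosa replicate 4). Gfap, 1 of the 3 on the higher side, averaged 47.6 ± 44.3 CPM in controls and 129.2 ± 23.6 CPM with the Nr2f2 guide. Aldoc, the marker with the highest mean, lay at 320.2 ± 195.2 and 210.6 ± 109.7 CPM, with its highest value (545.8 CPM) in sgRosa replicate 4. The lowest astrocyte sums were in sgRosa replicate 1 and sgNr2f2 replicate 2, which were also the libraries lowest for Mt3. Relative to this sum, Mt3 stood at 0.0386, 0.0518, 0.0572 and 0.0496 in sgRosa and at 0.0261, 0.0305 and 0.0313 in sgNr2f2, and here the groups did not overlap, which on the lower side held for 1.02% of all genes tested with the same ratio. The mean log2 ratio was -4.36 ± 0.24 in sgRosa and -5.10 ± 0.14 in sgNr2f2, a difference of -0.74 for which no test was made. This separation rested on single markers: with Gfap left out of the sum the groups overlapped and the difference was -0.39, and with Aldoc left out they overlapped at a difference of -1.19 (both chosen after the data were seen). For Mt1 and Mt2 the ratio to all 9 markers overlapped between the groups, with differences of -0.48 and -0.39. Without sgNr2f2 replicate 2 these were -0.97 and -1.12, and without sgNr2f2 replicate 1 they were -0.26 and -0.02. Leaving out sgRosa replicate 4 gave differences of -0.29 for Mt1 and -0.13 for Mt2. Whether there were fewer astrocytes or less RNA per cell cannot be told apart in bulk libraries, and the part of astrocyte content in the Mt3 values was not tested.

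Summed markers of pericytes and smooth muscle, the cells of vessel walls, also went with Mt3. Their sums were 121.8, 397.4, 341.1 and 396.2 CPM in sgRosa and 253, 79.2 and 99.6 CPM in sgNr2f2. The 3 libraries highest for Mt3 were the 3 highest for these sums, and sgRosa replicate 1 was low for both. In sgRosa replicate 4, however, Acta2 alone gave 304.4 CPM of the sum, while Rgs5 was at 4.50 CPM, its lowest value in any library. None of the 5 markers that passed the filter was on the higher side and edgeR called 0. The median log2 fold change was -1.35 (-1.37 without sgRosa replicate 4). The list is led by Acta2, Rgs5 and Myh11, and Kcnj8 and Abcc9 were at 0 in at least 1 library (both named after their values were seen). Its part in the Mt3 values was not tested.

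**Figure D4:**
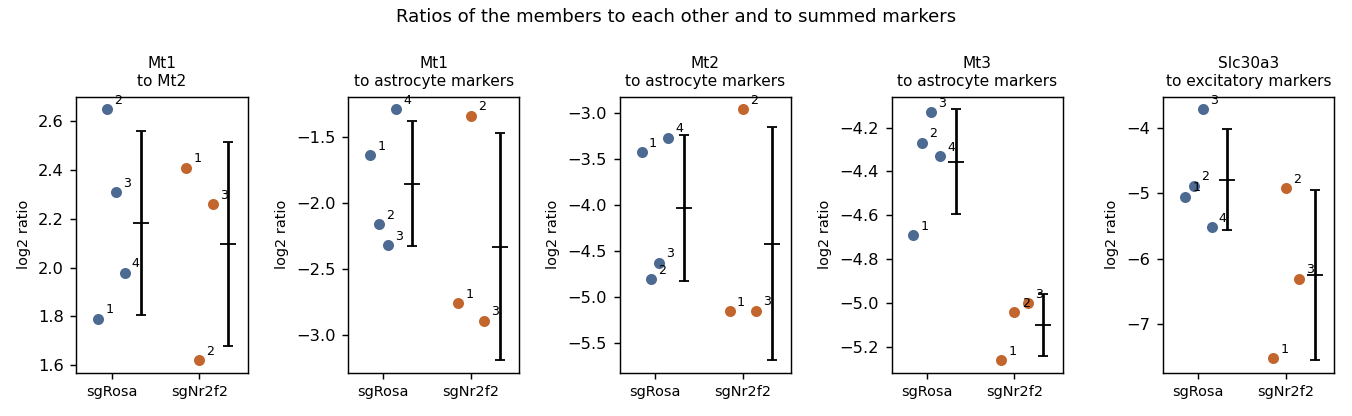
Log2 ratio of Mt1 to Mt2, of each metallothionein to the summed CPM of 9 astrocyte markers, and of Slc30a3 to the summed CPM of 6 excitatory neuron markers, per library (numbers are replicates), with mean and SD in black and a separate vertical scale in each panel. Only in the panel of Mt3 and astrocyte markers do all 4 sgRosa points lie above all 3 sgNr2f2 points, with means of -4.36 and -5.10, and this no longer held with Gfap or Aldoc left out of the sum.

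Mtf1, the zinc-sensing activator, lay at 22.9, 40.7, 35.2 and 10.9 CPM in sgRosa and at 48.8, 27.6 and 42.6 CPM in sgNr2f2. Its lowest value was in sgRosa replicate 4, the library where Mt1 and Mt2 were highest, and the groups overlapped. The means were 27.4 ± 13.3 and 39.7 ± 10.9 CPM and the log2 fold change was 0.53 (SE 0.49, interval -0.55 to 1.61, edgeR adjusted p = 0.897), or 0.27 without that library. The share of counts in Mbp, the leading oligodendrocyte marker, was 10.3, 22.9, 23.1 and 1.47% in sgRosa and 23.2, 14.3 and 25.8% in sgNr2f2. The 3 libraries lowest for Mtf1 (sgRosa replicates 4 and 1 and sgNr2f2 replicate 2) were also the 3 lowest in this share. Genes reported as targets of Mtf1 (Mt1, Mt2 and Slc30a1 among them), counted together with Mtf1 itself, lay on both sides. Of these 9 genes, 4 were on the higher and 5 on the lower side, edgeR called 0, and the median log2 fold change was -0.14 (5, 4 and 0.27 without sgRosa replicate 4). Ndrg1 is a stress-responsive gene that is also strong in myelinating cells. It ranged from 438 to 850 CPM among controls and from 861 to 1215 CPM with the Nr2f2 guide. The groups thus did not overlap, by a small margin, as held on the higher side for 4.41% of all genes tested. Its log2 fold change was 0.57 (SE 0.48). Csrp1, a LIM-domain protein gene, lay at 507.7 ± 224.5 and 808.6 ± 279.7 CPM with overlap. The oligodendrocyte markers had a median log2 fold change of 0.60 (0.35 without sgRosa replicate 4), with 8 of 8 on the higher side and 0 called by edgeR. Their part in the values of Mtf1 and Ndrg1 was not tested. Slc39a10, a zinc importer that Mtf1 is reported to repress, lay at 159.0 ± 83.0 and 99.8 ± 53.7 CPM.

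Slc30a1, the plasma membrane zinc exporter, lay at 49.0, 23.1, 45.8 and 22.8 CPM in sgRosa and at 24.5, 68.3 and 51.0 CPM in sgNr2f2. Each group held both low and high libraries, and the log2 fold change of 0.45 (SE 0.48, interval -0.63 to 1.52) did not pass (edgeR adjusted p = 0.909). It was 0.29 without sgRosa replicate 4, 0.10 without sgNr2f2 replicate 2 and 0.75 without sgNr2f2 replicate 1. In sgRosa replicate 4, where Mt1 and Mt2 were highest, Slc30a1 was as low as in sgRosa replicate 2.

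Slc30a3, the vesicular zinc transporter, showed the largest fold of the 6 genes at the lowest level. It had 137, 28, 26 and 50 counts in sgRosa, or 6.42, 1.52, 1.77 and 6.81 CPM, and 8, 12 and 24 counts in sgNr2f2, or 0.485, 0.673 and 1.45 CPM. Every sgNr2f2 library lay below every sgRosa library, but sgNr2f2 replicate 3 came close to sgRosa replicate 2, and the sgRosa mean rested on replicates 1 and 4. The means were 4.13 ± 2.88 and 0.870 ± 0.513 CPM, a log2 fold change of -2.23 (SE 0.78, interval -3.96 to -0.50) with an unadjusted p of 0.0165 and an edgeR adjusted p of 0.868. It was -1.89 without sgRosa replicate 4 and -1.04 in limma-voom with quality weights for the libraries (adjusted p = 0.506). Other genes at a similar level also leaned lower: of 3430 genes with a mean of 1 to 5 CPM, 66.5% lay on the lower side with a median log2 fold change of -0.32, and 5.57% lay lower without overlap. A log2 fold change more negative than that of Slc30a3 was fitted for 1.40% of all genes tested.

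The excitatory neurons that carry Slc30a3 were read through 6 markers, led by Camk2a, Slc17a7 and Nrn1. Of these markers 4 passed the filter on low counts, and Neurod6 was at 0 in sgNr2f2 replicate 1 (named after its values were seen). Their sum was 212.0, 44.6, 23.2 and 313.4 CPM in sgRosa and 89.6, 20.4 and 115.4 CPM in sgNr2f2. The 2 sgRosa libraries with high sums were the 2 with high Slc30a3. In sgRosa replicate 4, however, Camk2a alone gave 303.8 CPM of the sum, while Nrn1 was at its lowest value in any library. In sgRosa replicate 1 Nrn1 was at its highest. Relative to the sum of all 6 markers, Slc30a3 stood at 0.0217 to 0.0763 in sgRosa and at 0.00541, 0.0331 and 0.0126 in sgNr2f2. Here sgNr2f2 replicate 2 lay inside the sgRosa range. How far this overlap rested on Camk2a was not tested. The difference in mean log2 ratio was -1.46, and it was -0.82 without sgNr2f2 replicate 1 and -2.13 without sgNr2f2 replicate 2. Summed markers of GABA neurons and of neurons in general went with Slc30a3 as well. GABA neuron markers, led by Gad2, Gad1 and Slc32a1, summed to 51.9, 25.9, 47.3 and 82.9 CPM in sgRosa and to 27.0, 37.6 and 41.8 CPM in sgNr2f2, with a median log2 fold change of -0.58 (-0.25 without sgRosa replicate 4). The general neuron markers had a median of -0.67 (-0.08 without that library). For both lists sgRosa replicates 1 and 4 had the highest sums, and these libraries were also highest for Slc30a3. Single markers parted in sgRosa replicate 4. Syt1 (557.6 CPM) and Gad2 (47.4 CPM) were at their highest there, but Snap25 (36.9 CPM) and Gad1 (4.50 CPM) were at their lowest. Among genes of the zinc-secreting synapse, counted with Slc30a3, 3 of the 7 tested were on the higher and 4 on the lower side, with a median log2 fold change of -0.03 and 0 called by edgeR (5, 2 and 0.07 without sgRosa replicate 4). Slc17a6, a vesicular glutamate transporter, averaged 72.6 ± 46.1 CPM in controls against 32.8 ± 22.1 CPM, a log2 fold change of -1.15 (SE 0.61; -0.63 without sgRosa replicate 4). Slc17a7, the vesicular glutamate transporter that shares vesicles with Slc30a3, lay at 0.748 to 23.4 CPM in sgRosa libraries and 0.280 to 21.2 CPM with the Nr2f2 guide (named after its values were seen). Shank2, a zinc-binding scaffold of the postsynaptic density, lay at 6.61 ± 3.03 and 9.54 ± 3.02 CPM (log2 fold change 0.54, or 0.88 without sgRosa replicate 4). Ap3d1, a subunit of the adaptor that sorts Slc30a3 to vesicles, lay at 48.9 ± 20.8 and 40.5 ± 3.34 CPM, where the sgRosa mean rested on 80.1 CPM in replicate 4: its log2 fold change of -0.27 turned to 0.07 without that library. The part of neuron content in the Slc30a3 values was not tested.

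The wider zinc exporter family did not lean to one side. Of 9 exporter genes tested (Slc30a2 and Slc30a8 did not pass the filter), 5 were on the higher and 4 on the lower side, the median log2 fold change was 0.05 and edgeR called 0. Without sgRosa replicate 4 these were 3 and 6 with a median of -0.15. Tmem163, a zinc transporter of vesicle membranes, had the second smallest p among them. It lay at 6.14, 7.69, 10.1 and 1.91 CPM in sgRosa and at 26.5, 8.19 and 17.3 CPM in sgNr2f2, so that the groups overlapped through sgNr2f2 replicate 2 and sgRosa replicate 3 (log2 fold change 1.41, SE 0.58, edgeR adjusted p = 0.868). Slc30a6, a zinc transporter of the Golgi region, lay at 6.28 ± 4.65 and 3.92 ± 0.928 CPM. Slc30a9 was the exporter with the most counts, at 127.6 ± 92.2 and 161.5 ± 48.3 CPM, with by far its lowest value in sgRosa replicate 4 (named after its values were seen). Its log2 fold change of 0.34 turned to -0.04 without that library.

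The zinc importers leaned to the lower side, as the genes tested did as a whole. Of 11 importers tested, 4 were on the higher and 7 on the lower side, the median log2 fold change was -0.21 and edgeR called 0 (4, 7 and -0.22 without sgRosa replicate 4), while 56.2% of all genes tested were on the lower side. Slc39a3 was the importer whose groups did not overlap, by a small margin (19.8 CPM in sgRosa against 21.4 CPM in sgNr2f2). Over all genes tested, 4.41% lay higher without overlap. Its means were 16.3 ± 3.36 CPM for sgRosa and 23.5 ± 2.40 CPM for sgNr2f2 (log2 fold change 0.53, SE 0.36, edgeR adjusted p = 0.868). Slc39a6 lay at 32.2 ± 24.1 and 16.3 ± 0.807 CPM, where the sgRosa mean rested on 67.3 CPM in replicate 4: its log2 fold change of -0.98 was -0.34 without that library. Slc39a11 lay at 11.1 ± 6.02 and 7.06 ± 1.19 CPM, and leaving out sgRosa replicate 4 took its log2 fold change from -0.65 to -0.22. Slc39a2, Slc39a4 and Slc39a5 did not pass the filter.

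**Figure D5:**
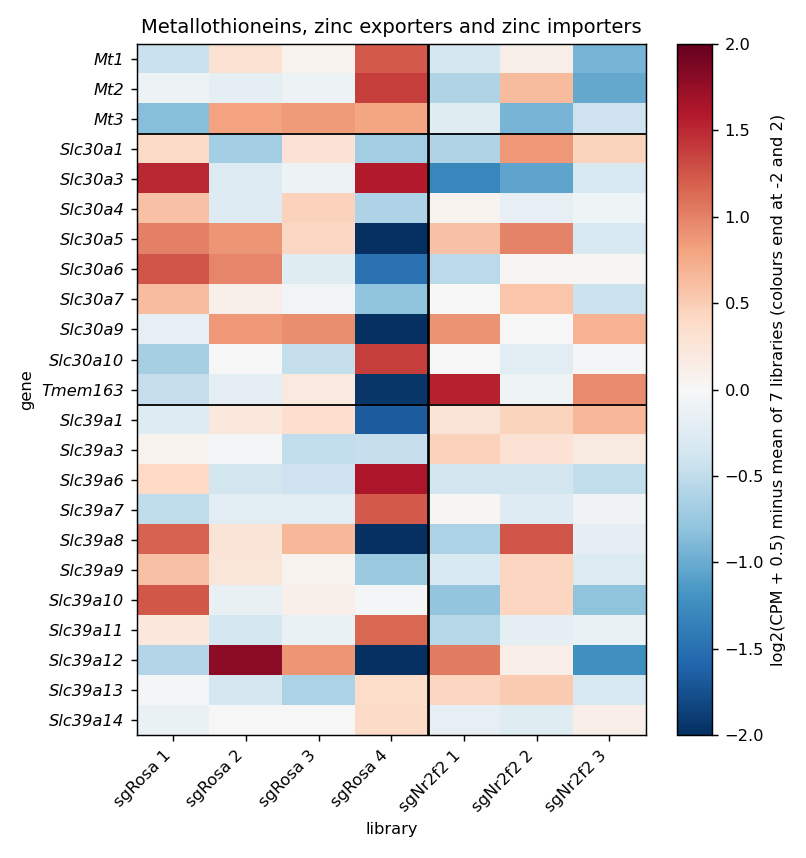
Log2(CPM + 0.5) of each tested metallothionein, zinc exporter and zinc importer minus its mean over the 7 libraries (colour, ending at -2 and 2), with the groups of genes parted by horizontal lines and sgRosa from sgNr2f2 by the vertical line. Most of the strong colours are in the column of sgRosa replicate 4, and no group of genes has one colour across the 3 sgNr2f2 libraries.

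Copper shares the metallothioneins as a buffer, and its handling genes showed no call. Of 8 tested, 2 were on the higher and 6 on the lower side, with a median log2 fold change of -0.23 (-0.20 without sgRosa replicate 4). Of all genes tested, 56.2% were on the lower side. With the length correction chosen after the data were seen, 4 of the 8 were on the higher and 4 on the lower side. Atp7a, the copper-exporting ATPase, averaged 27.0 ± 7.97 CPM in controls against 46.4 ± 15.6 CPM, a log2 fold change of 0.78 (SE 0.41). The copper chaperone genes Atox1, Cox17 and Ccs stood at -0.92, -0.65 and -0.45 on the same scale. With sgRosa replicate 4 left out these were -0.22, -1.03 and 0.23.

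The known inducers of Mt1 and Mt2 were read through 3 further lists. Glucocorticoid-induced genes lay on the higher side in 8 of 8 cases, with a median log2 fold change of 0.84 (8 of 8 and 0.62 without sgRosa replicate 4), and 3 of 8 had an unadjusted edgeR p under 0.05. Over all genes tested, 43.8% were on the higher side and 2.18% were higher with such a p. edgeR called 0 of the 8, whereas DESeq2 called 1, and 3 without sgRosa replicate 4. Over all genes DESeq2 called 0.00418% higher, and 1.49% without that library. This leaning was known when the list was written. Fkbp5, a dampener of the glucocorticoid receptor, lay at 4.17 to 19.3 CPM in sgRosa and at 53.7, 150.7 and 88.7 CPM in sgNr2f2 (log2 fold change 3.11, SE 0.65). In the sgNr2f2 libraries Fkbp5 and both inducible metallothioneins were highest in replicate 2, whereas between the groups Mt1 and Mt2 had negative log2 fold changes and Fkbp5 a positive one. Zbtb16, Cdkn1a and Klf9 had log2 fold changes of 1.75, 1.23 and 0.84.

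Targets of the oxidative stress factor NRF2 had negative log2 fold changes in 6 of 8 cases (median -0.47, and -0.18 without sgRosa replicate 4). Of all genes tested, 56.2% lay on the lower side. edgeR called 0 of the targets with and without sgRosa replicate 4, and DESeq2 called 0, and 1 without it. Over all genes DESeq2 without that library called 1.49% higher and 0.792% lower. Hmox1, the heme-degrading enzyme gene, lay at 4.36, 3.09, 1.09 and 11.3 CPM in sgRosa and at 0.424, 2.69 and 0.424 CPM in sgNr2f2. Like Mt2 it was highest in sgRosa replicate 4 and, within sgNr2f2, in replicate 2, and its log2 fold change of -2.04 was -1.27 without sgRosa replicate 4. Slc7a11, Nqo1 and Srxn1 had log2 fold changes of -2.54, -1.24 and 0.59. That of Slc7a11 had an SE of 1.20 and rested on 98 counts over all libraries. It lay at 1.45, 1.79, 1.43 and 0.273 CPM in sgRosa and at 0, 0.561 and 0.0605 CPM in sgNr2f2, with overlap. The heat shock chaperones, which respond to dissociation and heat, were on the higher side in 3 of 6 cases with a median of -0.10 and 0 called by edgeR (3 of 6 and 0.03 without sgRosa replicate 4). Hspe1 and Hsph1 had log2 fold changes of -0.77 and 0.47, or -0.51 and 0.37 without that library. Hspb1 and Dnajb1 turned from -0.82 and -0.31 to 0.73 and 0.10 without it, and Hspb1 had 760 CPM there against at most 100.4 CPM in the other controls.

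The genes whose levels followed each member most closely were found by Pearson's r of log2 CPM over the 7 libraries, among up to 5295 genes with a mean of at least 20 CPM. The points share depth and cell make-up, so r is a description. For Mt3 they were Uqcrh, Rpl36 and Cox7a2 (r between 0.965 and 0.977), which encode small respiratory chain and ribosomal proteins and have transcripts of 547, 383 and 659 bases. For Mt1 they were Bloc1s1 (0.968), Ndufc1 (0.967) and Tceb2 (0.947), and for Mt2 Arhgdib (0.970), Kcnq1ot1 (0.959) and Fubp1 (0.953). The transcripts of Bloc1s1 and Ndufc1 are 550 and 315 bases long, with no length for Tceb2. Those of the genes nearest to Mt2 are 1193, 93092 and 6523 bases long. None of the 3 genes nearest to one metallothionein was among those nearest to another. Mtf1 had the closest companions, Mettl14, Zfp532 and Kctd13 (0.997, 0.997 and 0.996), and 640 genes exceeded r = 0.9 with it, against 24 for Mt1, 54 for Mt2 and 20 for Mt3. Slc30a1 was followed by Mgat1 (0.981), Clic5 (0.948) and the death receptor gene Fas (0.939). Slc30a3 was followed by the clock output gene Dbp (0.965), Dkk3 (0.962) and the neuronal adhesion gene Nrcam (0.939). Dbp lay at 40.6, 22.7, 26.4 and 58.1 CPM in sgRosa and at 8.90, 10.7 and 14.9 CPM in sgNr2f2, with its 2 highest values in the same libraries as Slc30a3.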

How the data were processed

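Raw counts by gene symbol were deposited for 7 libraries, each made from 5 ng of total RNA, as 1 table and as 7 single-library files with the same values. Per the submitters' processing notes, the build was mm10, the aligner STAR 2.7.5c and the counter featureCounts 2.0.1, with fastp 0.23.2 and edgeR 3.42.4 also named. The annotation is not given in the sources used here. Counts were fitted here with edgeR 4.0.16 in R 4.3.3 (TMM factors, filter on low counts, quasi-likelihood F test, group as the only term) over 14412 genes, with Benjamini-Hochberg adjustment. CPM used TMM-scaled library sizes, and log2 CPM a prior count of 2. Total counts of 6266897 to 20928677 set the depth. No molecular identifiers are named, so floors of 3 counts cover counting error only. Alternatives used DESeq2 1.42.0, limma 3.58.1, other factors and filters, and fits without each library. The fits were tested on simulated data. Coordinates and promoters came from RefSeq tables of GRCm38.p6, which matched 90.3% of symbols, and transcript lengths (longest transcript paired with a curated RefSeq one, 92.0% of tested genes) from GENCODE M21. Selenow was counted under its older symbol Sepw1. The members and the 9 pathway and 12 marker lists were chosen with earlier results of these data known. The text names the 6 genes, up to 4 genes of smallest p per pathway list, the 3 most abundant markers and the 3 closest genes by correlation. It also names Nr2f2, Selenow, list genes that did not pass the filter and genes that overlap a member. Genes named otherwise are marked as such. The value of 1 marker gene is not reported here.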

Additional observations from a re-analysis of the deposited data

Results flagged for a closer look

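In sgRosa, the gap between 1 library and the nearest of the other 3 took up nearly the whole range of the group for 2 of 11 measures checked. For Mt2 it was 0.941 of the range in log2 CPM (sgRosa replicate 4, 69.4 CPM, highest) and for Mt3 it was 0.962 (sgRosa replicate 1, 10.3 CPM, lowest). Chance alone flags about 1 in 20 such groups.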

How the results depend on the processing

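edgeR called 0 genes under each scaling, filter and length correction tried and, without 1 library at a time, between 0 and 0; limma-voom also called 0. DESeq2 called 7, and 357 without sgRosa replicate 4; the cause was not tested. None of the 6 genes passed under any of the 21 alternatives (smallest adjusted p 0.204, Mt3, limma-voom with quality weights). Mt3, Mtf1, Slc30a1 and Slc30a3 kept their direction under all 21, with log2 fold changes of -1.35 to -0.48, 0.25 to 0.81, 0.10 to 0.75 and -2.80 to -1.04. Mt2 turned to 0.02 with DESeq2 without sgRosa replicate 4, to 0.07 with the length correction and to 0.41 with that correction without sgRosa replicate 4, where Mt1 turned to 0.11. The length corrections were chosen after seeing the data. The difference in the ratio of Mt1 to astrocyte markers went from -0.48 to -0.97 without sgNr2f2 replicate 2, and that of Mt3 from -0.74 to -0.39 and -1.19 with Gfap or Aldoc left out of the markers (chosen after seeing the data). Without 1 library at a time, the difference ran from -1.12 to -0.02 for Mt2 and astrocyte markers and from -2.13 to -0.82 for Slc30a3 and excitatory markers. Same-numbered libraries did not deviate together (correlations of -0.27, -0.33 and 0.06, and 0 of 6 libraries closest to their own number). The labels do not state what a replicate number marks, so these values cannot settle whether the numbers pair libraries. With the replicate block 0 genes were called, and the log2 fold changes were -0.36 for Mt1, -0.21 for Mt2, -0.84 for Mt3, 0.27 for Mtf1, 0.24 for Slc30a1 and -1.65 for Slc30a3. With 8 to 137 counts per library, depth limits Slc30a3 most.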
